A study of Mus musculus with 13 samples.

Results

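The 10 genes described here take glucose into the cell and break it down to lactate. They were matched by name: the glucose transporters Slc2a1 and Slc2a3, the hexokinases Hk1 and Hk2, the phosphofructokinase Pfkl, the aldolase Aldoa, the phosphoglycerate kinase Pgk1, the enolase Eno1, the pyruvate kinase Pkm and the lactate dehydrogenase Ldha. All 10 names were found in both deposited gene lists, among 57010 genes in each. Their RNA was counted as unique molecular identifiers (UMIs) in single mouse cells barcoded with the split-pool kits of Parse Biosciences, in which fixed cells are spread over wells and labelled in successive rounds. The WT kit held 4 thymic lobes, called WT lobes 1 to 4 here, and 16 other tissue samples. The Mini kit held 4 thymic lobes of other mice, called Mini lobes 1-A, 1-B, 2-A and 2-B. Each set of 4 lobes came from 2 untreated female C57BL/6N mice aged 2 months, with 2 lobes a mouse, and the study called lobes of the same mouse technical replicates. The labels do not tie lobes to mice, so the lobes were the units of every test and the p-values are too small for mice. Lobes were mashed, digested with collagenase/dispase and DNase I and fixed before barcoding, so all thymocyte classes of a lobe share that handling. The 16 other samples are called non-thymic and unrelated in the study and carry codes only, in a kit whose labels name thymus and spleen, control and chronic stress. No group was assigned to them, and their values are given as ranges and medians without a test.

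Glycolysis begins with facilitated uptake of glucose and its trapping by hexokinase, passes the committed step at phosphofructokinase, splits the sugar at aldolase, and yields ATP at phosphoglycerate kinase and pyruvate kinase before lactate dehydrogenase reduces pyruvate to lactate. T cell precursors in the thymus are first double negative (DN) for the coreceptors CD4 and CD8, proliferate once a receptor beta chain is made, rest as small double-positive (DP) cells while the alpha chain is rearranged, are selected (DP-S) and mature as single-positive (SP) cells. Glycolytic enzymes are known to be raised in lymphocytes that grow and divide, and the hypoxia-inducible factor and Myc are known to bind at their promoters.

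Promoter sequence was available for 9 of the 10 genes in RefSeq (build GRCm38.p6, 250 bases before to 50 after each start, 16 promoters in all), and for Slc2a3 none was printed. The letters ACGTG, the core of the element bound by the hypoxia-inducible factor, stood in a promoter of 7 of these 9 genes on either strand (Slc2a1, Hk1, Hk2, Aldoa, Pgk1, Pkm and Ldha). Counted by promoter they stood in 50% of the members' promoters, against 19.6% of all 32851 promoters of the same length. The variant GCGTG stood in promoters of 5 of the 9 genes, and in 50% of their promoters against 32.4% of all. The letters CACGTG, the E-box bound by Myc, contain ACGTG and stood in 1 promoter, that of Ldha, against 7.15% of all promoters. Promoters of a gene can overlap, and the same ACGTG of Aldoa and the same GCGTG of Eno1 were each counted in more than 1 promoter. The comparison was not matched for base composition, and a match is a description of the letters and not of binding. The 250 bases before the start are shown for Hk2, Ldha, Pgk1 and Pkm, genes that the results below turn on, with ACGTG on either strand in capitals together with the outer letters of any CACGTG.
Hk2, chr6:82774455-82774704, minus strand: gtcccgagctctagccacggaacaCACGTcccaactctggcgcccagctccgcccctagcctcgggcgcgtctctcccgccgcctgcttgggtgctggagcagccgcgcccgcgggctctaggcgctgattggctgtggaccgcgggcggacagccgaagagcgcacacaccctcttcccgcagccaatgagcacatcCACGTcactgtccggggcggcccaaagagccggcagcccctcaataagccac
Ldha, chr7:46845554-46845803, plus strand: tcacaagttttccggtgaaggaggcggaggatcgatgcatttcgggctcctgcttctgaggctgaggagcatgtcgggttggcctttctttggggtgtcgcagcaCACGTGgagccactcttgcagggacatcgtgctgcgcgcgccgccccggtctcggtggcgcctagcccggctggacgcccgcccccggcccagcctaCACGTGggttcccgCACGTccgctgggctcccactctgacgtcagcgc
Pgk1, chrX:106186850-106187099, plus strand: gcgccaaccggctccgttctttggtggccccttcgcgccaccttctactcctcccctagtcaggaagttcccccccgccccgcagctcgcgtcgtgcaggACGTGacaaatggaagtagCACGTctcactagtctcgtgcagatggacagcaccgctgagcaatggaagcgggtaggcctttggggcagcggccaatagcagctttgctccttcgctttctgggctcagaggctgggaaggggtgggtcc
Pkm, chr9:59656977-59657226, plus strand: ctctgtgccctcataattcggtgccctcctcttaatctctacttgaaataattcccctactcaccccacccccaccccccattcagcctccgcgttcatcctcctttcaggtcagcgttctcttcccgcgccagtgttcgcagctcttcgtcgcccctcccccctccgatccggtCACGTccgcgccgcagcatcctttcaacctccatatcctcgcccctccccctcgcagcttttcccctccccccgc
The Ldha sequence holds 5 ACGTG counted over both strands, 4 of them in 2 CACGTG, which read the same on both strands. Hk2 and Pgk1 hold 2 each and Pkm 1. For Ldha and Pkm, which have 2 promoters each in RefSeq, the one that holds ACGTG is shown, and the other holds none. The G and C content of the 4 sequences was 69.6% for Hk2, 67.2% for Ldha, 62.8% for Pgk1 and 61.6% for Pkm.

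The WT matrix held 128624 cells and the Mini matrix 20085. The WT lobes carried 30450786 to 124106974 UMIs and the Mini lobes 28057164 to 33264104, and 37402 and 18311 thymic cells were kept after filters. No barcode was carried by more than 1 cell of the same sublibrary, and no combination of wells occurred in more than 1 tissue sample of a kit. Both follow from barcodes defining the cells and from tissue samples having first-round wells of their own, so neither tests for collisions. The combination of wells recurred in another sublibrary for 44889 WT cells and 2720 Mini cells. Classes were called from clusters by fixed markers, with the 10 genes and the pathway lists kept out of the clustering. In the WT kit the DN class held 1050 cells (66 to 430 per lobe), the cycling class 5405, resting DP 17359, DP-S 4287 and mature SP 2571. The Mini kit held 442 (78 to 128 per lobe), 1805, 7991, 1730 and 843 cells. Levels are UMIs summed over the cells of a class in a lobe and given as counts per 1000000 of them (CPM), and values stand in the order of the lobes above. Levels of markers describe the classes and are no independent check, since the clusters were named by lists that hold these markers. The DN class had the highest Il2ra, at 830.3 CPM in the WT kit and 1022 in the Mini kit, but still carried Cd4 at 285 and 364 CPM and Rag1 at 557 and 711 CPM. It also carried the division marker Mki67, at 530 ± 161 CPM against 160.2 ± 81.3 in resting DP of the WT kit (SD, n = 4). In the Mini kit Mki67 was at 581 ± 102 CPM in DN against 87.0 ± 24.2 in resting DP. The part of dividing cells in the DN differences was not tested. Resting DP had Rag1 at 1517 CPM in the WT kit and mature SP had Ccr7 at 492 CPM with Rag1 at 82.6. Median UMIs per cell ran from 7163 to 9706 in DN and from 1547 to 2652 in resting DP over the WT lobes, and the part of this depth gap in the results was not tested beyond the thinned counts given below. Genes of the dissociation response (8 genes) summed to a median of 272 CPM in DN, 93.6 in cycling, 84.8 in resting DP and 255 in mature SP in the WT kit, and their part in the results was not tested.

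Of DN, cycling, resting DP and mature SP cells, resting DP had the lowest mean level of Slc2a3, Hk2, Pfkl, Aldoa, Pgk1, Pkm and Ldha in both kits. With cycling cells taken as 1 class, Hk2 was highest in DN, Eno1 and Pkm in mature SP cells, and Hk1 was lowest in cycling cells. DN against resting DP in the WT kit gave 6 members higher and 1 lower at an edgeR adjusted p under 0.05, while 30.9% of all 12054 genes tested were higher and 25.2% lower. The Mini kit gave 4 members higher and 1 lower, against 27.4% and 26.9% of the 9562 genes tested there. The genes higher in both kits were Slc2a3, Hk2, Aldoa and Ldha. The 4 DN and the 4 resting DP lobes did not overlap for 5 members in the WT kit, beside 36.3% of all genes, and for 4 in the Mini kit, beside 43.6%. The members' median log2 fold change was 0.49 in the WT kit and 0.24 in the Mini kit, beside 0.034 and -0.025 over all genes tested. In the WT kit, where 56.1% of all genes were called in either direction, 1 member was past the threshold with classes set by marker gates (175 DN cells, 39.8% of all genes called), 2 with cells thinned to 1000 UMIs (32.9%) and 3 with DN cells that had no coreceptor UMI (261 cells, 41.9%). The same counts in the Mini kit were 1, 0 and 3, beside 28.1%, 31.7% and 36.3% of all genes and 54.3% in the fit as reported, and 3 members passed without lobe 2-B (46.3%).

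Cycling against resting DP gave 7 members higher and 1 lower in the WT kit, against 33.9% and 29.9% of all genes. For the Mini kit the counts were 6 higher and 2 lower, against 30.8% and 36.9%. Slc2a3, Hk2, Pfkl, Aldoa, Pgk1 and Ldha were higher and Hk1 lower in both kits. The lobes did not overlap for 6 members in the WT kit and 7 in the Mini kit, beside 40.9% and 55.9% of all genes. The members' median log2 fold change was 0.50 and 0.42, beside 0.021 and -0.066 over all genes. With marker gates 2 members passed in the WT kit and 5 in the Mini kit, beside 56.6% and 53.5% of all genes, and with thinned cells 4 and 2, beside 53.2% and 55.1%, where the fits as reported called 63.8% and 67.7%. Mature SP against resting DP gave 7 members higher and none lower in the WT kit, against 28.7% and 26.1% of all genes, and 4 higher and none lower in the Mini kit, against 24.3% and 22.7%. Slc2a3, Eno1, Pkm and Ldha were higher in both kits. The lobes did not overlap for 6 members in the WT kit and 3 in the Mini kit, beside 38.4% and 41.7% of all genes. The median of the members was 0.72 and 0.59, beside 0.0071 and -0.0023 over all genes. The mature class was not alike in the kits. The WT class joined an SP-CD4-like cluster with an SP-CD8-like one that carried the division marker Mki67 at 887 CPM, while the Mini class was 1 SP-CD4-like cluster. Mki67 was at 374 ± 111 CPM in mature SP and 160.2 ± 81.3 in resting DP of the WT kit and at 90.5 ± 36.02 and 87.0 ± 24.2 in the Mini kit (SD, n = 4), and its part in the WT differences was not tested. Within the WT class Pkm was higher in the SP-CD4-like cells in all 4 lobes, at 140.7 ± 26.0 against 102 ± 14.5 CPM, Pfkl was lower in all 4, and the other 8 genes were mixed.

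Set against mature SP cells, DN and cycling cells had less Eno1 and Pkm in both kits, cycling cells also had less Hk1, and DN cells had more Hk2, in the fits as reported. DN against mature SP gave 1 member higher and 4 lower in the WT kit, beside 22.8% and 18.5% of all genes, and 1 higher and 2 lower in the Mini kit, beside 20.2% and 19.2%. Cycling against mature SP gave 2 higher and 6 lower in the WT kit, beside 33.4% and 24.3% of all genes, and 0 higher and 3 lower in the Mini kit, beside 26.7% and 26.4%. The WT count of 8, beside 57.7% of all genes called in either direction, was 4 without WT lobe 2 (53.3% of all genes) or 4 (49.2%) and 5 without WT lobe 3 (51.1%), and the Mini count of 3 (53.2%) was 1 without lobe 1-A (49.6%). DN against cycling cells gave 2 higher and 2 lower in the WT kit, beside 20.4% and 24.6% of all genes, and 1 higher and 0 lower in the Mini kit, beside 20.7% and 19.2%. The WT count of 4, beside 45.04% of all genes, was 2 without WT lobe 2 (39.9%) or 4 (34.9%) and 1 without WT lobe 3 (37.5%), and the Mini count of 1 (39.9%) was 0 without lobe 1-A (35.96%) and 2 without lobe 2-A (34.4%). In the order of these 3 comparisons the lobes did not overlap for 3, 4 and 1 members in the WT kit, beside 27.5%, 40.7% and 27% of all genes, and for 2, 1 and 1 in the Mini kit, beside 33.4%, 46.3% and 32.7%. These counts share classes with those above and are not independent of them. Of the 39 calls against resting DP in both kits 11 held under every alternative that could be fitted, namely Slc2a3 in cycling and mature SP cells and Ldha in mature SP cells of both kits, Aldoa, Eno1 and Pkm in mature SP and Hk2 in DN cells of the WT kit, and Pgk1 in cycling cells of the Mini kit. Marker gates assign any kept cell of the lobes, whatever its cluster, by the UMIs of a few markers each. These gates ended 22 of the 39 calls, 10 of them among the 12 in DN, and thinning ended 14 and left 7 that could not be fitted. The share of all genes' calls that held or ended under the same alternatives is not given here. The plot of fold changes shows the 3 comparisons with resting DP side by side.

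**Figure D1:**
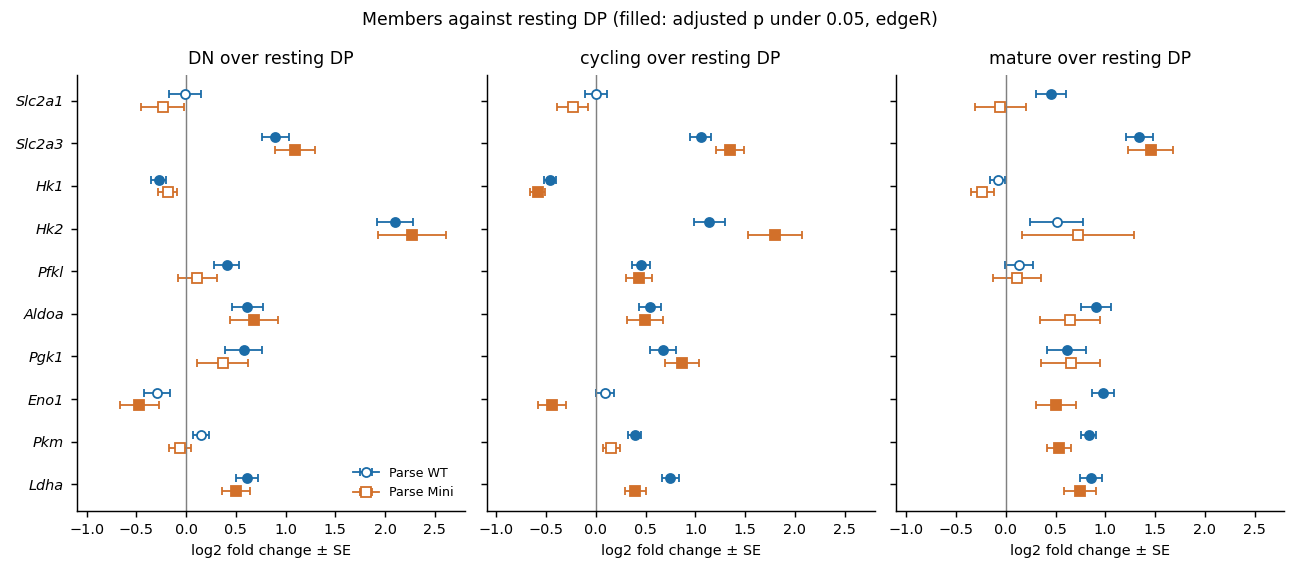
Log2 fold change against resting DP (horizontal axis, edgeR fit, bars 1 standard error) of the 10 genes in DN, cycling and mature SP cells of the WT and Mini kits (n = 4 lobes each), with filled symbols for an adjusted p under 0.05. Hk2 in DN lies farthest to the right, at 2.10 in the WT kit and 2.27 in the Mini kit, and Hk1 lies left of 0 in each.

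Slc2a1 (ENSMUSG00000028645, chr4:119108711-119137983, plus strand, build GRCm38) encodes GLUT1, the widely used basal glucose transporter. Its level in the WT lobes was 29.98, 13.9, 17.5 and 20.9 CPM in DN, 18.7, 16.04, 20.9 and 17.7 in cycling, 20.6, 15.6, 23.99 and 16.8 in resting DP and 29.5, 27.3, 36.2 and 20.5 in mature SP cells. The ranges of all 4 classes overlapped. Mature SP cells exceeded resting DP, with a log2 fold change of 0.45 ± 0.151, edgeR adjusted p = 0.0118, higher in 7 of 8 first-round wells, and without WT lobe 2 it was 0.39, adjusted p = 0.074. In the Mini kit the same difference was -0.054 ± 0.256, edgeR adjusted p = 0.886, which did not pass. For DN against resting DP the log2 fold changes were -0.0099 ± 0.157 and -0.23 ± 0.218 (SE, n = 4 lobes each), neither past the threshold. DN and cycling cells were below mature SP in the WT kit, at -0.46 ± 0.187, edgeR adjusted p = 0.0468 and -0.46 ± 0.154, adjusted p = 0.0118, and the DN call was lost without WT lobe 2 (-0.33, adjusted p = 0.264) or WT lobe 3 (-0.34, adjusted p = 0.236) and turned to 0.013, adjusted p = 0.507 with limma on the mean over cells of log-normalized values. Neither difference passed in the Mini kit, at -0.18 ± 0.313, edgeR adjusted p = 0.694 and -0.18 ± 0.272, adjusted p = 0.607.

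Slc2a3 (ENSMUSG00000003153, chr6:122727809-122801640, minus strand) encodes GLUT3, a transporter of high affinity found in neurons and leukocytes. Resting DP cells of the WT kit had 18.4, 18.6, 14.9 and 17.3 CPM, cycling cells 37.1, 33.8, 34.5 and 35.3 CPM and mature SP cells 38.1, 44.4, 50.6 and 48.1 CPM. Every cycling and every mature value was above every resting value, and the same held for cycling cells in the Mini kit, where resting DP had 19.2, 12.6, 11.9 and 12.96 CPM and cycling cells 47.99, 41.5, 32.2 and 35.4 CPM. The log2 fold change of cycling over resting DP was 1.05 ± 0.103, edgeR adjusted p = 2.41e-10 in the WT kit and 1.35 ± 0.141, adjusted p = 6.76e-13 in the Mini kit. Mature SP exceeded resting DP by 1.34 ± 0.136, edgeR adjusted p = 6.41e-10 and 1.46 ± 0.226, adjusted p = 1.16e-07. Both calls held under all 17 alternatives in each kit. DN lay between, with 14.1, 40.3, 28.3 and 36.4 CPM in the WT lobes, of which WT lobe 1 was below every resting lobe and the other 3 were above all of them. The DN difference from resting DP was 0.90 ± 0.139, edgeR adjusted p = 1.99e-06 in the WT kit and 1.09 ± 0.200, adjusted p = 3.68e-06 in the Mini kit. Against mature SP, DN was lower in the WT kit at -0.44 ± 0.151, edgeR adjusted p = 0.0186, a call lost without WT lobe 3 (-0.39, adjusted p = 0.0926) or WT lobe 4 (-0.53, adjusted p = 0.0532), and at 0.00094, adjusted p = 0.976 with limma on means over cells. The Mini difference of -0.36 ± 0.241 did not pass (edgeR adjusted p = 0.246).

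Hexokinases phosphorylate glucose at entry. Hk2 (ENSMUSG00000000628, chr6:82725025-82774454, minus strand), the inducible isoform, had the largest fold change of the 10 genes in any of the 6 comparisons. Its level in the WT lobes was 19.4, 19.3, 20.2 and 18.8 CPM in DN cells and 3.86, 5.44, 4.77 and 3.35 CPM in resting DP cells, from 11 to 62 and 21 to 45 UMIs per lobe. No DN lobe came near the resting range. The log2 fold change was 2.10 ± 0.184, edgeR adjusted p = 3.30e-11, or 4.29-fold, and Hk2 was higher in DN in 8 of 8 wells. In the Mini kit DN cells had 20.3, 21.8, 10.1 and 10.5 CPM and resting DP cells 2.86, 3.45, 2.33 and 2.59 CPM, from 9 to 16 and 10 to 18 UMIs per lobe. The ranges again did not overlap, and the log2 fold change was 2.27 ± 0.343, edgeR adjusted p = 6.02e-08, with DN higher in 10 of 12 wells. Thinned cells left Hk2 under the filter on low counts and could not be fitted. Of the other 16 alternatives the WT call held under all, and the Mini call was lost with marker gates, which left 94 DN cells.

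Cycling cells of the WT kit had 8.28, 9.01, 8.47 and 10.1 CPM of Hk2, between DN and resting DP, and mature SP cells had 7.77, 6.83, 7.55 and 4.60 CPM. Cycling exceeded resting DP by 1.14 ± 0.157, edgeR adjusted p = 2.03e-07 in the WT kit and 1.80 ± 0.275, adjusted p = 5.01e-08 in the Mini kit. With cycling cells set by marker gates the WT difference turned to -0.11, adjusted p = 0.827. Mature SP did not pass against resting DP, at 0.51 ± 0.267, edgeR adjusted p = 0.108 and 0.72 ± 0.566, adjusted p = 0.304. DN exceeded mature SP by 1.59 ± 0.242, edgeR adjusted p = 2.28e-06 in the WT kit and by 1.55 ± 0.500, adjusted p = 0.00944 in the Mini kit, where the call was lost without lobe 1-A (1.07, adjusted p = 0.121) or 1-B (1.32, adjusted p = 0.0943). Marker gates changed what was seen against mature SP cells. The gate for mature SP was applied to every kept cell of the lobes, whatever its cluster, and asked for UMIs of genes such as Ccr7, S1pr1 and Itgae. B cells or dendritic cells that met it could enter, and their part in the gated Hk2 levels was not tested. With the gates, cells called mature SP exceeded resting DP in Hk2 by 1.68, edgeR adjusted p = 1.53e-06 in the WT kit and 2.21, adjusted p = 1.03e-04 in the Mini kit, and DN against mature SP became 0.21, adjusted p = 0.769 and -1.28, adjusted p = 0.45. DN exceeded cycling cells in the WT kit (0.96 ± 0.165, edgeR adjusted p = 1.51e-05), while the Mini difference of 0.47 ± 0.302 had an adjusted p of 0.222 and did not pass.

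Hk1 (ENSMUSG00000037012, chr10:62268855-62379908, minus strand), the constitutive isoform, went the other way. Resting DP cells of the WT kit had 125, 93.4, 109 and 99.6 CPM and cycling cells 77.6, 66.6, 81.1 and 74.3 CPM, and no cycling value reached the resting range. The log2 fold change was -0.46 ± 0.0597, edgeR adjusted p = 6.09e-08, and cycling was lower in every one of the 8 wells. In the Mini kit it was -0.59 ± 0.0767, edgeR adjusted p = 7.41e-10, lower in all 12 wells. DN cells, with 102, 77.5, 103 and 87.1 CPM, were lower than resting DP in the WT kit, with a log2 fold change of -0.28 ± 0.0744, edgeR adjusted p = 0.00213, and the Mini difference of -0.19 ± 0.0960 did not pass (adjusted p = 0.0961). In mature SP cells Hk1 was at 107 ± 23.9 CPM (SD, n = 4), close to the resting level of 107 ± 13.9, and the difference of -0.080 ± 0.0743 did not pass. Cycling cells were below mature SP, at -0.38 ± 0.0776, edgeR adjusted p = 8.99e-05 in the WT kit and -0.35 ± 0.126, adjusted p = 0.0159 in the Mini kit. DN exceeded cycling cells by 0.19 ± 0.0773, edgeR adjusted p = 0.0494 and 0.40 ± 0.106, adjusted p = 0.00151, and the Mini call was lost without lobe 1-A. The differences of Hk1 from resting DP in DN and cycling cells turned sign in both kits when limma was run on the mean over cells of log-normalized values. They became 0.24, adjusted p = 1.80e-06 in DN and 0.061, adjusted p = 0.105 in cycling cells of the WT kit, and 0.25, adjusted p = 5.19e-05 and 0.010, adjusted p = 0.89 in those of the Mini kit. This measure called far more of all genes higher than lower in WT DN against resting DP, as counted at the end, so the turn is not particular to Hk1.

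Counted per kilobase of exon, so that the isoforms can be compared, Hk1 exceeded Hk2 in all 4 lobes of each kit in DN, cycling, resting DP and mature SP cells. The Hk1 level was 12.5 ± 1.62 CPM per kilobase in resting DP against 0.729 ± 0.156 of Hk2 (SD, n = 4 WT lobes), and in DN it was 10.8 ± 1.45 against 3.25 ± 0.0981. In S-phase cells it was 8.48 ± 1.41 against 3.13 ± 0.243. Slc2a3 was below Slc2a1 per kilobase in resting DP in all 4 WT lobes, at 2.39 ± 0.236 against 5.49 ± 1.08. In mature SP cells the pair stood at 6.25 ± 0.749 and 8.10 ± 1.85, with Slc2a3 higher in 1 of 4 lobes. These kits prime inside transcripts as well as at the tail, and the length that captures RNA is not known, so the ratios hold for exon length only.

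**Figure D2:**
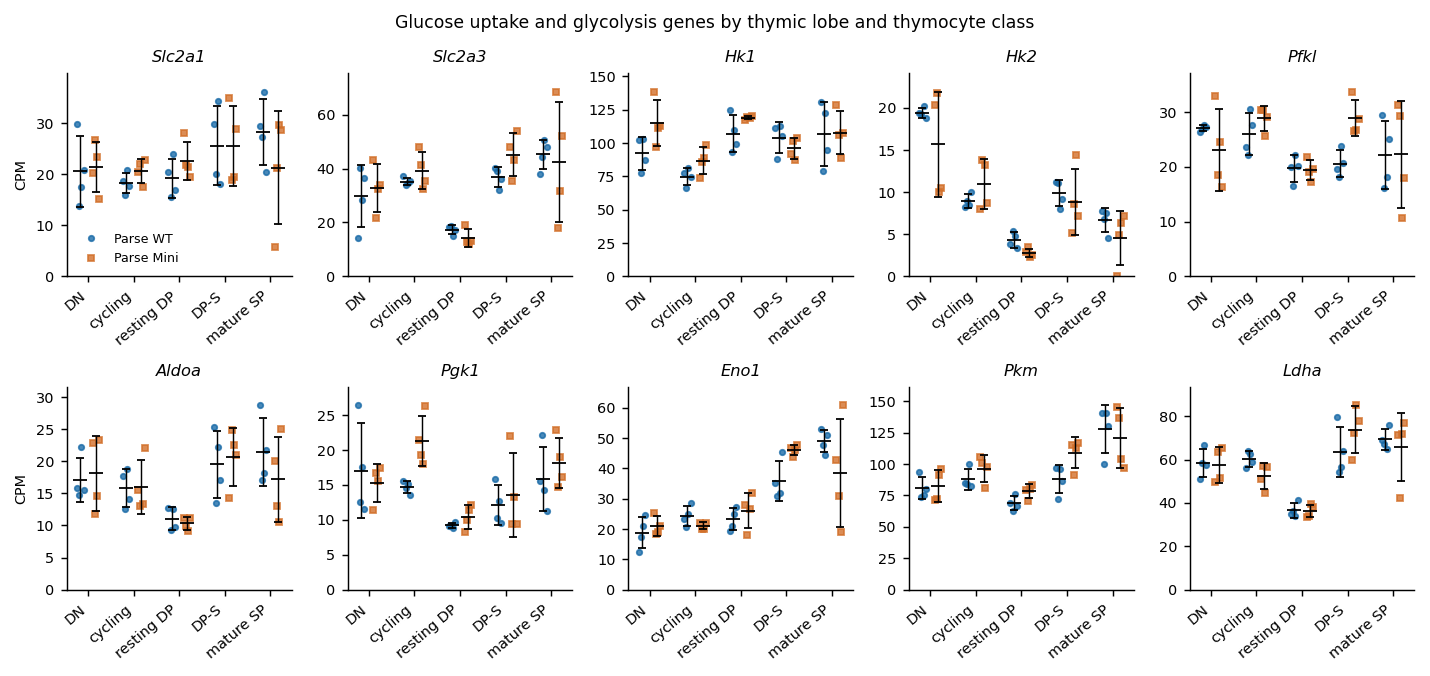
Level of each of the 10 genes (vertical axis, CPM) in DN, cycling, resting DP, DP-S and mature SP cells, with a point for each of the 4 lobes of each kit (circles WT, squares Mini) and bars at the mean and 1 SD. In the Hk2 panel the DN points of the WT kit lie between 18.8 and 20.2 and the resting DP points between 3.35 and 5.44.

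Pfkl (ENSMUSG00000020277, chr10:77986947-78010083, minus strand) encodes the liver-type subunit of phosphofructokinase, which commits the sugar to glycolysis. Its levels in the WT lobes were 26.5, 26.9, 27.6 and 27.3 CPM in DN, 23.6, 22.1, 30.6 and 27.7 in cycling and 20.01, 16.4, 22.2 and 20.2 in resting DP cells. The DN values did not overlap the resting values. Cycling exceeded resting DP by 0.45 ± 0.0929, edgeR adjusted p = 9.65e-05 in the WT kit, in 8 of 8 wells, and by 0.43 ± 0.134, adjusted p = 0.00365 in the Mini kit, in 12 of 12 wells. The DN difference of 0.41 ± 0.127, edgeR adjusted p = 0.00702 was lost without WT lobe 2 (0.31, adjusted p = 0.0969) or WT lobe 4 (0.38, adjusted p = 0.0794) and turned to -0.025, adjusted p = 0.972 with marker gates, and in the Mini kit it was 0.11 ± 0.197 and did not pass.

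Aldoa, the aldolase of muscle and most other cells, was listed under 2 gene identifiers. ENSMUSG00000030695 (chr7:126795234-126800751, minus strand) held nearly all UMIs and is described here, while ENSMUSG00000114515, just upstream of it, was at or below 3.5 CPM in the thymocyte classes and was not tested. In the 16 other samples the latter reached 18.6 CPM in NK cells, from at most 1 UMI per sample, and had a median of 4.45 CPM in cycling cells. The WT lobes had 15.9, 14.8, 22.2 and 15.5 CPM in DN and 12.7, 9.30, 12.5 and 9.76 CPM in resting DP cells, without overlap, and WT lobe 3 stood above the other DN lobes. DN exceeded resting DP by 0.62 ± 0.152, edgeR adjusted p = 9.70e-04 in the WT kit and by 0.68 ± 0.243, adjusted p = 0.0147 in the Mini kit, where it was lost without lobe 1-A (0.61, adjusted p = 0.0735) or 2-B (0.60, adjusted p = 0.0947) and turned to -0.10, adjusted p = 0.947 with marker gates. Cycling cells exceeded resting DP by 0.55 ± 0.110, edgeR adjusted p = 6.96e-05 and by 0.50 ± 0.181, adjusted p = 0.0133, the latter lost without lobe 2-B (0.37, adjusted p = 0.155). Mature SP cells had 28.8, 17.1, 18.1 and 21.8 CPM in the WT lobes, 0.91 ± 0.151, edgeR adjusted p = 6.29e-06 over resting DP, a call that held under all 17 alternatives. The Mini difference of 0.64 ± 0.297 did not pass (adjusted p = 0.0689).

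Pgk1 (ENSMUSG00000062070, chrX:106187100-106203699, plus strand) makes the first ATP of the pathway. The WT lobes had 15.6, 14.6, 15.1 and 13.5 CPM in cycling and 9.18, 9.18, 8.86 and 9.76 CPM in resting DP cells, and these did not overlap. Cycling exceeded resting DP by 0.68 ± 0.131, edgeR adjusted p = 4.14e-05 in the WT kit and 0.87 ± 0.172, adjusted p = 1.10e-05 in the Mini kit, in every well of both kits. The DN difference in the WT kit was 0.58 ± 0.187, edgeR adjusted p = 0.00943, lost without WT lobe 1 (0.42, adjusted p = 0.0605) or WT lobe 3 (0.49, adjusted p = 0.0807), and the mature difference was 0.61 ± 0.196, edgeR adjusted p = 0.00867, lost without WT lobe 2 (0.43, adjusted p = 0.115). Neither passed in the Mini kit (0.37 ± 0.258 and 0.65 ± 0.297). Of the 50-base words of its transcripts 53.9% also occur in transcripts of other genes, chiefly processed copies such as Pgk1-rs7, the largest such share of the 10 genes.

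Eno1 (ENSMUSG00000063524, chr4:150236721-150248879, plus strand) encodes alpha-enolase, which makes phosphoenolpyruvate. It was highest in mature SP cells of the WT kit. The WT lobes had 52.9, 47.8, 44.5 and 51.1 CPM in mature SP, 19.5, 21.1, 25.1 and 27.4 in resting DP, 23.3, 20.7, 24.97 and 28.6 in cycling and 12.3, 17.5, 20.9 and 24.6 in DN cells. Every mature value was above every value of the other 3 classes. Mature SP exceeded resting DP by 0.98 ± 0.111, edgeR adjusted p = 7.18e-09 in all 8 wells, and DN was below mature SP, at -1.27 ± 0.143, edgeR adjusted p = 1.03e-08, both under all 17 alternatives. DN cells were not higher than resting DP: the difference was -0.29 ± 0.131, edgeR adjusted p = 0.059, with DN lower in all 4 lobes. In the Mini kit mature SP had 42.8, 30.9, 19.05 and 60.9 CPM and resting DP 27.8, 18.01, 26.5 and 31.9 CPM, which overlapped. The difference of 0.50 ± 0.201, edgeR adjusted p = 0.0331 passed but was lost without lobe 1-A (0.51, adjusted p = 0.0658), 1-B (0.46, adjusted p = 0.105) or 2-B (0.30, adjusted p = 0.368).
DN and cycling cells of the Mini kit were below resting DP for Eno1, at -0.47 ± 0.199, edgeR adjusted p = 0.0417 and -0.44 ± 0.140, adjusted p = 0.00428. Without lobe 2-B they became -0.32, adjusted p = 0.272 and -0.29, adjusted p = 0.128, and the DN call was also lost without lobe 1-A (-0.53, adjusted p = 0.0607) or 2-A (-0.42, adjusted p = 0.131). With limma on means over cells they turned to 0.020, adjusted p = 0.565 and 0.017, adjusted p = 0.68. Of its 50-base words 26.0% occur in other transcripts, among them those of Eno1b.

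Pkm (ENSMUSG00000032294, chr9:59656368-59679375, plus strand) encodes the pyruvate kinase of muscle and dividing cells. The WT lobes had 141, 99.9, 140.4 and 130.1 CPM in mature SP, 84.9, 83.9, 100.3 and 82.3 in cycling, 93.5, 73.9, 75.5 and 79.8 in DN and 69.2, 62.7, 76.1 and 66.8 in resting DP cells. Mature SP did not overlap resting DP or DN, and the cycling value of WT lobe 3 stood above the others. Mature SP exceeded resting DP by 0.83 ± 0.0761, edgeR adjusted p = 6.82e-11 in the WT kit and 0.53 ± 0.122, adjusted p = 1.90e-04 in the Mini kit. DN was below mature SP, at -0.68 ± 0.0902, edgeR adjusted p = 1.87e-07 and -0.60 ± 0.147, adjusted p = 6.34e-04, and the latter turned to 0.013, adjusted p = 0.805 with limma on means over cells. Cycling cells were also below mature SP, at -0.45 ± 0.0752, edgeR adjusted p = 7.16e-06 and -0.38 ± 0.125, adjusted p = 0.00831. The Mini difference again turned sign with limma on means over cells. Cycling passed against resting DP in the WT kit, at 0.39 ± 0.0628, edgeR adjusted p = 3.14e-06, with 0.16 ± 0.0831, adjusted p = 0.0919 in the Mini kit, where cycling was higher in 4 of 4 lobes and passed without lobe 2-A (0.24, adjusted p = 0.0245) or 2-B (0.23, adjusted p = 0.0326). The difference between the kits was not tested. The splice forms of Pkm cannot be told apart in counts per gene, and 25.8% of its 50-base words occur in other transcripts.

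Ldha (ENSMUSG00000063229, chr7:46841475-46855627, plus strand), which turns pyruvate into lactate, was lowest in resting DP of the 4 classes in both kits. The WT lobes had 34.9, 36.1, 33.9 and 41.2 CPM in resting DP, 51.1, 58.3, 66.7 and 57.4 in DN, 56.1, 64.2, 62.5 and 58.7 in cycling and 69.2, 67.4, 64.9 and 76.2 in mature SP cells. The 3 other classes each lay wholly above the resting range. The log2 fold changes over resting DP were 0.61 ± 0.111, edgeR adjusted p = 2.31e-05 in DN, 0.75 ± 0.0844, adjusted p = 5.07e-09 in cycling and 0.86 ± 0.111, adjusted p = 8.71e-08 in mature SP cells. In the Mini lobes resting DP had 33.5, 34.1, 39.5 and 38.1 CPM and DN 49.6, 63.7, 51.4 and 65.3 CPM, again without overlap. The 3 differences there were 0.50 ± 0.140, edgeR adjusted p = 0.00174, then 0.40 ± 0.104, adjusted p = 6.65e-04, and 0.74 ± 0.160, adjusted p = 7.73e-05. The cycling difference of the Mini kit turned to -0.047, adjusted p = 0.819 with marker gates. The mature call held under all 17 alternatives in both kits. Differences of DN and cycling cells from mature SP, -0.25 ± 0.126 and -0.11 ± 0.106 in the WT kit, did not pass.

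Within the cycling class the genes were unevenly spread, a split made after the values were seen and given without a test. The S-phase cells also differed in stage markers and depth. In the WT kit the S-phase cluster had Il2ra at 57.5 CPM, Cd4 at 205, Cd8a at 322 and a median of 9001 UMIs per cell, and the 2 clusters of G2 and mitosis had Il2ra at 6.17 and 9.51 CPM, Cd4 at 382 and 519, Cd8a at 568 and 603 and medians of 3461 and 7306 UMIs. In the Mini kit Il2ra was at 55.4 against 4.02 CPM, Cd4 at 382 against 593, Cd8a at 406 against 647 and the medians were 5577 and 4759 UMIs. The part of stage and of depth in the differences between the phases was not tested. S-phase cells had more RNA of 8 of the 10 genes than cells in G2 and mitosis in every lobe, in each kit, against 30.1% of all genes in the WT kit and 35.0% in the Mini kit. The 7 genes that did so in both kits were Slc2a1, Hk2, Pfkl, Aldoa, Pgk1, Pkm and Ldha. For 6 genes in each kit the lobes did not overlap, against 21.7% and 29.9% of all genes. Hk2 in the WT kit was at 18.7 ± 1.45 against 4.27 ± 1.32 CPM (SD, n = 4), 4.38-fold, and in the Mini kit at 19.01 ± 7.17 against 2.91 ± 0.999 CPM, 6.54-fold. Ldha was at 95.7 ± 5.23 against 43.4 ± 5.59 CPM in the WT kit and 66.9 ± 10.9 against 37.5 ± 5.99 CPM in the Mini kit. Pkm was at 119 ± 7.20 against 72.6 ± 9.45 CPM and 124 ± 13.9 against 68.5 ± 9.10 CPM, and Aldoa at 23.01 ± 5.04 against 12.3 ± 2.76 CPM and 21.2 ± 8.33 against 10.8 ± 2.52 CPM. Hk1 was higher in S phase in 2 of 4 WT lobes and 1 of 4 Mini lobes, Eno1 in 3 of 4 WT lobes and Slc2a3 in 3 of 4 Mini lobes. Against DN, S-phase cells were higher in every lobe for 4 members and lower for 1 in each kit, and the share of all genes was not counted for this pair. Ldha and Pkm were among the higher ones in both kits, and Hk1 was the lower one in both. Hk2 in S phase overlapped DN in both kits. It was at 18.7 ± 1.45 against 19.4 ± 0.586 CPM in the WT kit, higher in 1 of 4 lobes. In the Mini kit it was at 19.01 ± 7.17 against 15.7 ± 6.26 CPM, higher in 3 of 4.

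**Figure D3:**
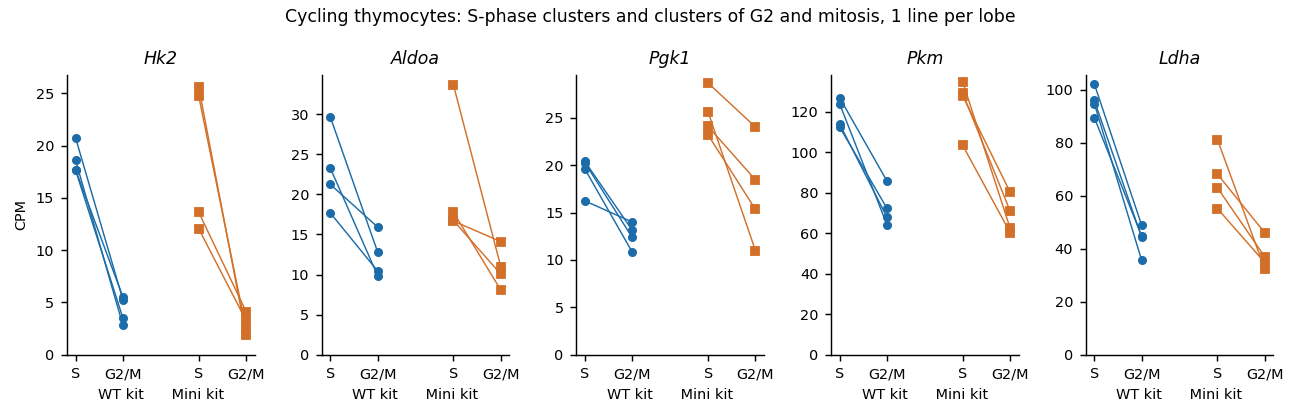
Level of Hk2, Aldoa, Pgk1, Pkm and Ldha (vertical axis, CPM) in S-phase cells and in cells in G2 and mitosis (G2/M), with the points of the same lobe joined, for the WT kit (circles) and the Mini kit (squares). The lines of all 4 lobes of each kit fall from S phase to G2 and mitosis, for Hk2 from a mean of 18.7 to 4.27 in the WT kit.

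Selected DP cells (DP-S), in which the receptor has been engaged, stood above resting DP for 7 of the 10 genes in every lobe of each kit, against 25.9% and 27.6% of all genes. The DP-S class had Rag1 at 747 ± 101 CPM in the WT kit and 450 ± 77.9 in the Mini kit. Median UMIs per cell ran from 3079 to 4479 in DP-S and from 1547 to 2652 in resting DP over the WT lobes. Over the Mini lobes they ran from 1452.5 to 2707 and from 1870 to 2633.5. The part of depth in these differences was not tested. The 6 genes shared by the kits were Slc2a3, Hk2, Aldoa, Eno1, Pkm and Ldha. Ldha was at 63.5 ± 11.5 against 36.5 ± 3.26 CPM in the WT kit and 73.7 ± 10.8 against 36.3 ± 2.93 CPM in the Mini kit, without overlap. Slc2a3 was at 36.9 ± 3.73 against 17.3 ± 1.71 CPM and 45.1 ± 7.98 against 14.2 ± 3.37 CPM, also without overlap. Hk2 was at 9.87 ± 1.54 against 4.35 ± 0.930 CPM and 8.84 ± 3.94 against 2.81 ± 0.478 CPM. Hk1 again differed, with 96.2 ± 7.78 against 119 ± 1.26 CPM in the Mini kit, lower in all 4 lobes, and 104 ± 11.4 against 107 ± 13.9 CPM in the WT kit, where the lobes overlapped. Eno1 and Pkm of the WT kit were lower in DP-S than in mature SP in all 4 lobes (35.8 ± 6.68 against 49.1 ± 3.68 CPM and 87.99 ± 11.4 against 128 ± 19.2 CPM), so the means of both ran in the order resting DP, DP-S, mature SP from low to high. Eno1 of the Mini kit was higher in DP-S in 3 of 4 lobes (46.1 ± 1.62 against 38.4 ± 17.9 CPM), and its means did not run in that order, while those of Pkm did (78.5, 109 and 121 CPM), with DP-S above mature SP in 2 of 4 lobes.

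Thymic dendritic cells of the conventional type, 487 cells in the WT kit and 180 in the Mini kit, had far more Hk2 than any thymocyte class. The level was 57.8 ± 9.06 against 4.35 ± 0.930 CPM of resting DP in the WT kit, 13.3-fold, and 60.6 ± 23.4 against 2.81 ± 0.478 CPM in the Mini kit, 21.6-fold. Per kilobase of exon Hk2 was at 9.69 ± 1.52 CPM there against 8.86 ± 2.29 for Hk1 in the WT kit, with Hk1 higher in 0 of 4 lobes, and Hk1 was higher in 2 of 4 lobes of the Mini kit. This cluster also carried macrophage markers at a median of 404 CPM and neutrophil markers at 549 CPM (488 to 3304) in the WT kit, and 1346 and 71.7 CPM in the Mini kit. The part of these cells in the Hk2 level was not tested. In WT DN cells the same lists were at 10.0 and 7.57 CPM and in resting DP at 8.72 and 11.8 CPM.

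The other genes of the pathway did not move as a block. Of 24 further enzymes and sugar transporters 11 could be tested in the WT kit, and 3 were higher and 4 lower in DN than in resting DP, 3 and 4 in cycling, and 4 and 2 in mature SP cells, beside the same shares of all genes as above. Tpi1, the triose phosphate isomerase, was at 23.2 ± 4.80 against 6.57 ± 2.54 CPM in DN and resting DP, a log2 fold change of 1.62 ± 0.189, edgeR adjusted p = 1.27e-08, and of 1.25 ± 0.305, edgeR adjusted p = 3.94e-04 in the Mini kit. In cycling cells Tpi1 was higher by 1.70 ± 0.142 and 2.07 ± 0.200. Gapdh, the next enzyme, was higher in cycling cells by 1.17 ± 0.0687, edgeR adjusted p = 1.80e-15 and 1.03 ± 0.109 in the Mini kit. Pgam1, the phosphoglycerate mutase, was higher in cycling and mature SP cells of the WT kit, by 1.49 ± 0.201 and 1.16 ± 0.316. Its levels were low, at 4.88 ± 0.867 and 4.33 ± 0.409 against 1.82 ± 0.512 CPM in resting DP. Ldhb, the lactate dehydrogenase subunit that favours the reverse reaction, was lower in DN and mature SP cells, at -1.27 ± 0.105, edgeR adjusted p = 1.03e-11 and -1.92 ± 0.122 in the WT kit, opposite to Ldha. In the Mini kit Ldhb was lower in DN, cycling and mature SP cells, at -1.47 ± 0.136, -1.38 ± 0.0958 and -1.91 ± 0.178. Bpgm, which makes 2,3-bisphosphoglycerate, was lower in DN at -0.93 ± 0.126 and -0.61 ± 0.153, and in mature SP cells of the Mini kit at -1.05 ± 0.202. Eno2, the enolase of neurons, was higher in mature SP cells of the WT kit by 2.49 ± 0.463, and Slc2a9, a urate and sugar transporter, in those of the Mini kit by 0.98 ± 0.153. Levels of Eno2 were low, at 4.49 ± 2.19 against 0.766 ± 0.300 CPM.

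Of 13 genes for the fate of pyruvate and lactate 12 were tested in the WT kit, with 3 higher and 6 lower in DN, 5 and 4 in cycling and 2 and 6 in mature SP cells. The shares of all genes higher and lower were 30.9% and 25.2% in DN, 33.9% and 29.9% in cycling and 28.7% and 26.1% in mature SP cells. Slc16a7, the monocarboxylate transporter MCT2, was at 15.2 ± 0.883 against 1.35 ± 0.392 CPM in DN and resting DP of the WT kit and at 16.2 ± 8.51 against 0.783 ± 0.708 CPM in the Mini kit, with log2 fold changes of 3.45 ± 0.236, edgeR adjusted p = 1.44e-13 and 4.20 ± 0.497. It was also higher in cycling cells, by 1.25 ± 0.247 and 1.99 ± 0.544, and in mature SP cells of the Mini kit by 2.12 ± 0.903. Slc16a3, the lactate exporter MCT4, was higher in DN and mature SP cells of the WT kit by 1.37 ± 0.513 and 2.32 ± 0.446. Its levels were low, at 1.80 ± 0.653 and 4.18 ± 0.954 against 0.736 ± 0.341 CPM in resting DP. Pdk1, a kinase that shuts off pyruvate dehydrogenase, was lower in DN at -0.89 ± 0.0898 and -0.78 ± 0.0859. Pdk1 was also lower in cycling cells, at -1.17 ± 0.0733 in the WT kit and -1.49 ± 0.0719 in the Mini kit. Pdk2, of the same family, was lower in cycling cells at -1.28 ± 0.150 and -1.21 ± 0.254. In mature SP cells Pdk2 was lower too, at -1.097 ± 0.231 in the WT kit and -1.502 ± 0.482 in the Mini kit. Mpc2, a subunit of the mitochondrial pyruvate carrier, was lower in mature SP cells at -0.69 ± 0.134 and -0.91 ± 0.255. In the comparisons without resting DP, Slc16a1, the monocarboxylate transporter MCT1, was higher in cycling than in mature SP cells by 1.17 ± 0.104 and 1.27 ± 0.144 and lower in DN than in cycling cells at -1.07 ± 0.0987 and -0.86 ± 0.112. Mpc1, the partner of Mpc2, was lower in DN than in cycling cells of the WT kit at -0.41 ± 0.139, and Pdha1, a subunit of pyruvate dehydrogenase, was lower in cycling than in mature SP cells of the Mini kit at -0.68 ± 0.134. Pfkp, the platelet-type phosphofructokinase, and Pfkfb2, a regulator of it, were lower in DN than in mature SP cells of the Mini kit at -0.80 ± 0.144 and -0.75 ± 0.271.

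Of 14 regulators 13 were tested in the WT kit, with 3 higher and 4 lower in DN, where 30.9% and 25.2% of all genes were, 3 and 5 in cycling (33.9% and 29.9%) and 3 and 3 in mature SP cells (28.7% and 26.1%). Myc, which drives many glycolytic genes, was at 44.9 ± 27.2 against 3.47 ± 1.07 CPM in DN and resting DP of the WT kit. Its log2 fold change was 3.42 ± 0.188, edgeR adjusted p = 8.56e-16 in DN, 2.36 ± 0.167 in cycling and 2.49 ± 0.228 in mature SP cells, and 3.46 ± 0.262, 2.91 ± 0.221 and 3.06 ± 0.331 in the Mini kit. Mycn, its relative, was higher in DN and cycling cells of the WT kit, by 3.30 ± 0.354 and 2.55 ± 0.297. Txnip, which restrains glucose uptake, was lower at -0.87 ± 0.0779 in DN and -0.87 ± 0.0625 in cycling cells of the WT kit and at -0.61 ± 0.0872 and -1.08 ± 0.0701 in those of the Mini kit. Tigar, a fructose bisphosphatase, was higher in mature SP cells of the WT kit by 1.86 ± 0.335, at low levels of 6.93 ± 3.47 against 1.77 ± 0.389 CPM. Egln3, a prolyl hydroxylase of the hypoxia pathway, was lower there at -1.44 ± 0.177 and in the Mini kit at -1.92 ± 0.258. Egln1, of the same family, was lower in DN and mature SP cells of the Mini kit at -0.56 ± 0.125 and -0.96 ± 0.164, and Pfkfb1, a regulator of phosphofructokinase, was higher in cycling cells there by 0.72 ± 0.253. Of the 3 lists 8, 11 and 11 genes could be tested in the Mini kit, with 3 and 3, 2 and 3, and 2 and 3 higher and lower in DN. In cycling cells these were 2 and 4, 4 and 5, and 2 and 5, and in mature SP cells 2 and 2, 2 and 4, and 3 and 3. The shares of all genes higher and lower there were 27.4% and 26.9% in DN, 30.8% and 36.9% in cycling and 24.3% and 22.7% in mature SP cells.

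In the 16 other samples the cells were mostly B cells (29113) and T cells (19155), with 3061 neutrophils, 3057 monocytes, 1026 macrophages and 1084 conventional and 552 plasmacytoid dendritic cells. A further 2122 cells formed T cell clusters high in Rag1 and 14379 stayed unnamed, and neither entered the totals below. The Rag1-high T cells exceeded the T cells in from 0 of 11 samples for Eno1 (medians 14.7 and 58.4 CPM) to 5 of 11 for Hk2. Their origin was not tested. Myeloid cells (neutrophils, monocytes, macrophages and both kinds of dendritic cell) were set against lymphoid cells (B, T, NK and plasma cells) within each sample. Hk2, Eno1 and Pkm were higher in myeloid cells in all 16 samples, 3 of the 10 genes, while 15.7% of 10894 genes were higher in every sample and 21.1% lower. Hk2 had its lowest, median and highest values at 35.5, 52.5 and 89.3 CPM in myeloid cells and at 6.14, 10.4 and 13.9 CPM in lymphoid cells. The samples did not overlap, and the median ratio was 5.86. Pkm was at 112, 145 and 349 CPM against 59.97, 70.2 and 95.4 CPM, also without overlap, at a median ratio of 2.01. Eno1 was at 43.2, 54.4 and 101 CPM against 28.1, 43.1 and 59.998 CPM, and the samples overlapped. Slc2a3, Aldoa and Pgk1 were higher in myeloid cells in 15 of 16 samples each, Ldha in 7 of 16, Pfkl in 6 of 16 and Hk1 in 5 of 16. Slc2a1 went the other way, higher in myeloid cells in 1 of 16, at 26.02, 39.7 and 73.4 CPM against 38.7, 51.4 and 74.5 CPM.

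The myeloid total depended on the neutrophils, which made up 12.7 to 53.3% of the myeloid cells. Without them Hk2 and Pkm were still higher in 16 of 16 samples, while Slc2a3 was higher in 0 of 16 (median 28.0 against 45.1 CPM), Aldoa in 8 and Eno1 in 11. Neutrophils had Slc2a3 at 119.7 to 329 CPM, median 157, monocytes at 1.27 to 27.9 CPM, median 12.2, T cells at 45.8 to 96.1 CPM, median 53.04 and B cells at 24.5 to 56.7 CPM, median 39.1. No neutrophil value fell within the range of the other 3 cell types, and monocytes lay wholly below T cells. Neutrophils also led for Pkm, with 154 to 481 CPM, median 246, above monocytes in 15 of 16 samples, themselves at 112 to 307 CPM, median 141.

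Hk2 was at 35.6 to 149 CPM, median 79.6 in neutrophils and at 38.6 to 117 CPM, median 56.2 in monocytes, and which of these was higher varied by sample (9 of 16 for neutrophils). Monocytes were above conventional dendritic cells, at a median of 41.7 CPM, in 16 of 16 samples. B cells at 3.67 to 18.2 CPM, median 11.8 and T cells at 2.07 to 19.8 CPM, median 6.73 formed the low end with NK cells, whose median was 1.32 CPM, and with plasmacytoid dendritic cells, a myeloid class here, whose median was 9.40 CPM. In the samples that held both, B cells were above plasmacytoid dendritic cells in 6 of 11 and these above T cells in 8 of 11. Among neutrophils the cluster led by the granule genes Ltf and Ngp had a median of 109 CPM of Hk2, and that led by Csf3r, Cxcr2 and Il1b had 18.8 CPM, the first higher in 15 of 15 samples. Per kilobase of exon Hk2 exceeded Hk1 in monocytes in 14 of 16 samples (medians 9.42 and 8.12 CPM per kilobase), while in T cells Hk1 exceeded Hk2 in all 16 (13.6 against 1.13). Slc2a3 exceeded Slc2a1 per kilobase in neutrophils in 14 of 16 samples and in monocytes in 0 of 16.

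Lymphoid cells differed among themselves. T cells exceeded B cells for Hk1 in all 16 samples, at 64.6 to 140.3 CPM, median 116 against 44.4 to 78.9 CPM, median 55.7. B cells exceeded T cells for Slc2a1 in all 16, at 49.8 to 87.7 CPM, median 60.7 against 30.3 to 66.01 CPM, median 43.03. For Ldha T cells were at 31.3 to 71.5 CPM, median 54.1, above B cells in 15 of 16 samples and above cycling cells in 8 of the 13 samples that held both. For Eno1 monocytes and neutrophils, at medians of 77.4 and 63.8 CPM, were each the higher in 8 of 16 samples, and neutrophils were above T cells in 13. For Aldoa neutrophils were above monocytes in 13 of 16 samples, and for Pgk1 in 10. Pfkl had medians of 25.2 CPM in monocytes, 23.4 in T cells, 22.97 in neutrophils and 22.5 in B cells, and lower ones of 16.5 in plasma cells, 12.7 in macrophages and 12.6 in plasmacytoid dendritic cells. Macrophages were below monocytes for Pfkl in 12 of 16 samples, from 0 to 14 UMIs per sample. RNA of other cells was present in these classes, since B cell markers summed to a median of 3961 CPM in T cells, 6076 in neutrophils and 2294 in monocytes, beside 13899 in B cells. Its part in the levels was not tested.

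**Figure D4:**
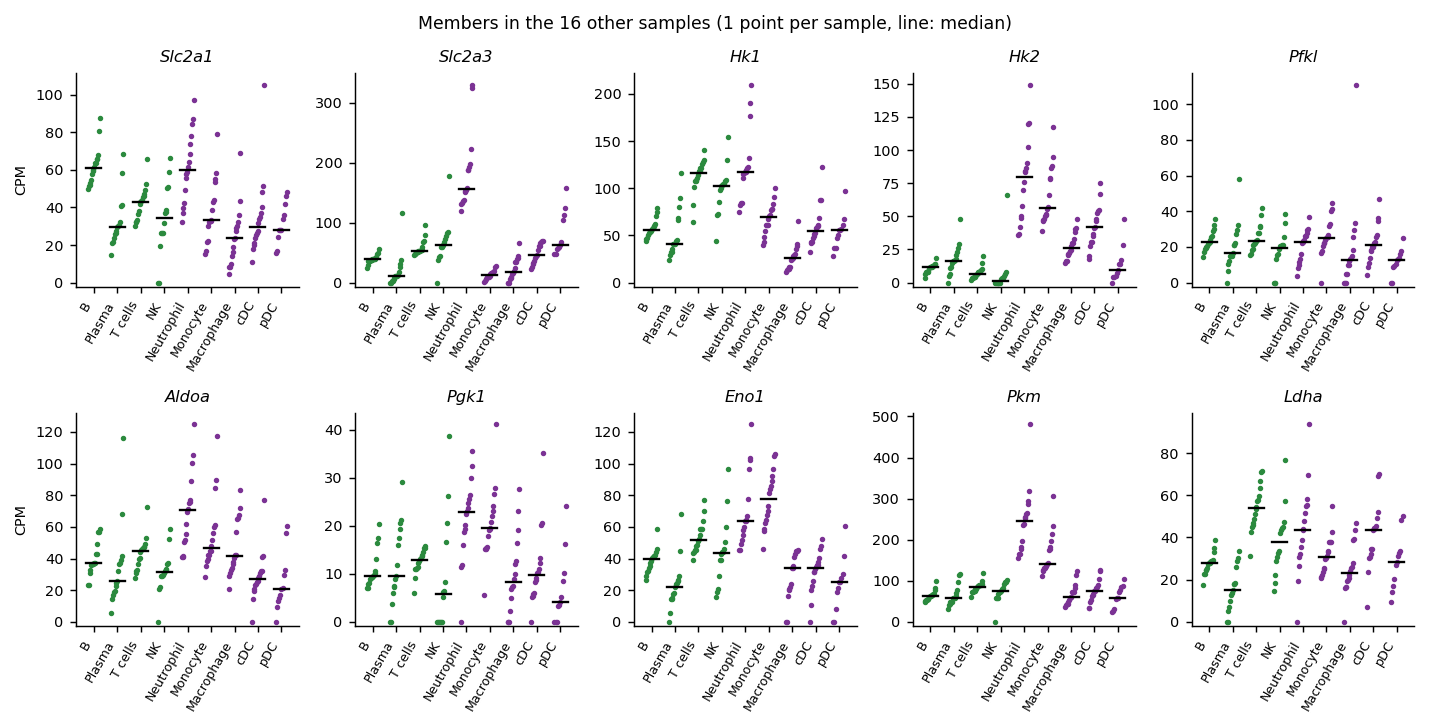
Level of the 10 genes (CPM) in the cell types of the 16 other samples, with a point for each sample that held at least 20 cells of the type, a line at the median, lymphoid types in green and myeloid types in purple. Neutrophil points stand above all T and B cell points for Slc2a3, at a median of 157 CPM, and monocyte and neutrophil points stand above all T and B cell points for Hk2.

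The members were unlike each other in their pattern over the 20 sums of 4 WT lobes and 5 thymocyte classes, which share lobes and depth. Pearson's r of each gene with the mean of the other 9, on log2(CPM + 1), was 0.91 for Aldoa, 0.81 for Pkm, 0.78 for Ldha, 0.54 for Slc2a3, 0.52 for Slc2a1, 0.46 for Pgk1, 0.40 for Eno1, 0.22 for Pfkl and Hk2 and 0.098 for Hk1. Among 8369 other genes the pattern most like the mean of the 10 was that of Pinx1 (r = 0.94), followed by Carm1 (0.92), Pvt1, Tarbp1 and Tmem50b (0.91 each). Pinx1 was at means of 12.6 CPM in resting DP, 21.0045 in cycling, 25.1 in DN and 29.3 in mature SP cells. Pvt1, a noncoding gene beside Myc, was at 13.9, 50.7, 62.1 and 165 CPM in the same order. These values describe 20 sums and carry no test.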

How the data were processed

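UMI counts were used as deposited. The authors ran split-pipe on each of the 9 sublibraries of the WT kit and the 2 of the Mini kit against an index of mm10 from Ensembl, and combined the sublibraries of a kit into 1 matrix of raw UMI counts per cell and gene. Neither the version of split-pipe nor the release of Ensembl is given in the sources used here. A sublibrary holds cells of every tissue sample, so groups were taken from the tissue sample named for each cell. The 10x libraries were not analysed here.

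Kept were cells with 500 to 25000 UMIs in which mitochondrial genes gave no more than 15%. From each tissue sample the 5% of cells with the highest Scrublet scores (scanpy 1.11.5) were then removed as possible doublets. Clusters were made from 3000 variable genes scaled within each tissue sample, 40 principal components and 20 neighbours (Leiden, resolution 1.5). The 10 genes, the 3 pathway lists, and mitochondrial, ribosomal protein and rRNA genes did not enter the clustering. A cluster took the name of the marker list with the highest mean log2 ratio to the other clusters where at least 3 of its markers were raised. The rules that left clusters of high UMIs, mature clusters high in Rag1 and weakly marked clusters of the other samples unnamed were set after the clusters were seen, as were the neutrophil clusters and the split of cycling cells.

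UMIs were summed per lobe and class, and CPM are counts per 1000000 of these UMIs without 3 rRNA genes. The sums of 5 classes were tested in 1 fit per kit by the quasi-likelihood test of edgeR 4.0.16 (TMM, filterByExpr), with the lobe as a block because a lobe gives all classes, in 6 comparisons. P-values were adjusted by Benjamini-Hochberg over all genes tested, with a threshold of 0.05. Errors of log2 fold changes are standard errors of that fit. Each first-round well held 1 lobe, and comparisons were also counted within the 8 wells of the WT lobes and the 12 wells of the Mini kit. A class entered with at least 20 cells of a tissue sample. The test was checked on simulated counts. DESeq2 1.42.0, limma 3.58.1, other filters and class rules and leaving out each lobe were alternatives.

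All 10 genes were named, and of each pathway list the genes among the 3 largest changes past the threshold in a comparison. The genes and lists were chosen with earlier results of these data known.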

Additional observations from a re-analysis of the deposited data

Results flagged for a closer look

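In 4 of 80 groups of 4 lobes (10 genes, 4 classes, both kits) 1 lobe lay far from the others by Dixon's criterion, which chance passes in about 1 in 20 groups. Aldoa in DN cells was at 22.2 CPM in WT lobe 3, with the other lobes between 14.8 and 15.9. Pkm in cycling cells was at 100.3 CPM in WT lobe 3, with the others between 82.3 and 84.9. Slc2a3 in resting DP cells was at 19.2 CPM in Mini lobe 1-A, with the others between 11.9 and 12.96. Ldha in mature SP cells was at 42.3 CPM in Mini lobe 1-B, with the others between 71.4 and 77.0. Leaving out the lobe concerned ended none of that gene's calls against resting DP in that kit.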

How the results depend on the processing

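Each count of members past the threshold stands with the percentage of all genes called in the same fit, and parentheses hold both as in the report. Of 2016 log2 fold changes of the 10 genes under the alternatives, 1742 kept their side of the threshold, 181 lost the call, 62 gained one and 31 were counted as turned in sign. A difference past the threshold in neither fit could change sign and still stand among the 1742, so the sign changes listed below are not all of them. DESeq2 and its size factors kept 117 and 115 of 120, and leaving out the resting DP cluster of the lowest UMI median kept 118. The last 3 alternatives, namely that cluster, the clusters of high UMIs or Rag1 and the DN cells without a coreceptor UMI, were chosen after seeing the data.

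Leaving out each lobe in turn, these ranged over 4 to 7 and 49.2 to 53.8% in WT cycling against mature SP (8 and 57.7%), 1 to 3 and 34.9 to 43.5% in WT DN against cycling (4 and 45.04%), 3 to 5 and 46.3 to 50.1% in Mini DN against resting DP (5 and 54.3%), 1 to 3 and 47.9 to 49.6% in Mini cycling against mature SP (3 and 53.2%) and 0 to 2 and 34.4 to 35.96% in Mini DN against cycling (1 and 39.9%). Without the lobe as a block, in the WT kit these numbered 3 and 33.5% in DN against mature SP (5 and 41.3%), 4 and 48.6% in cycling against mature SP (8 and 57.7%) and 1 and 33.1% in DN against cycling (4 and 45.04%). Without the filter on low counts, in the WT kit these numbered 5 and 21.4% in cycling against mature SP (8 and 57.7%), and in the Mini kit 2 and 15.6% in DN against cycling (1 and 39.9%). Without doublet removal, in the WT kit these numbered 8 and 40.9% in DN against mature SP (5 and 41.3%). With the larger doublet shares of the study removed (31% and 21%), in the WT kit these numbered 3 and 40.6% in DN against mature SP (5 and 41.3%), and in the Mini kit 0 and 38.5% in DN against cycling (1 and 39.9%). With cells above 25000 UMIs kept, in the WT kit these numbered 2 and 45.2% in DN against cycling (4 and 45.04%), and in the Mini kit 2 and 40.4% in DN against cycling (1 and 39.9%). The replicate numbers name lobes, and a lobe gives all classes, so the block is the design and not a pairing of mice.

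With classes set by marker gates, in the WT kit these numbered 1 and 39.8% in DN against resting DP (7 and 56.1%), 2 and 56.6% in cycling against resting DP (8 and 63.8%), 1 and 33.8% in DN against mature SP (5 and 41.3%) and 1 and 33.97% in DN against cycling (4 and 45.04%), and in the Mini kit 1 and 28.1% in DN against resting DP (5 and 54.3%), 5 and 53.5% in cycling against resting DP (8 and 67.7%), 0 and 23.7% in DN against mature SP (3 and 39.4%), 5 and 50.9% in cycling against mature SP (3 and 53.2%) and 0 and 21.01% in DN against cycling (1 and 39.9%). Calls over all genes then numbered, in the WT kit 3652 in DN against resting DP, 3102 in DN against mature SP and 3119 in DN against cycling, and in the Mini kit 2919 in DN against resting DP, 2455 in DN against mature SP and 2180 in DN against cycling. The log2 fold changes counted as turned in sign were Pfkl -0.025 (WT, DN against resting DP), Hk2 -0.11 (WT, cycling against resting DP), Slc2a3 0.0034 and Hk2 -1.79 (WT, cycling against mature SP), Pkm 0.26 (WT, DN against cycling), Aldoa -0.10 (Mini, DN against resting DP), Ldha -0.047 (Mini, cycling against resting DP), Hk2 -1.28 (Mini, DN against mature SP), Hk2 -1.25 (Mini, cycling against mature SP). With cells thinned to 1000 UMIs, in the WT kit these numbered 2 and 32.9% in DN against resting DP (7 and 56.1%), 4 and 53.2% in cycling against resting DP (8 and 63.8%), 1 and 27.3% in DN against mature SP (5 and 41.3%), 4 and 47.8% in cycling against mature SP (8 and 57.7%) and 1 and 24.6% in DN against cycling (4 and 45.04%), and in the Mini kit 0 and 31.7% in DN against resting DP (5 and 54.3%), 2 and 55.1% in cycling against resting DP (8 and 67.7%), 1 and 25.4% in DN against mature SP (3 and 39.4%) and 0 and 23.3% in DN against cycling (1 and 39.9%). Calls over all genes then numbered, in the WT kit 2866 in DN against resting DP, 4635 in cycling against resting DP, 3887 in mature against resting DP, 2381 in DN against mature SP, 4162 in cycling against mature SP and 2140 in DN against cycling, and in the Mini kit 2112 in DN against resting DP, 3673 in cycling against resting DP, 2642 in mature against resting DP, 1691 in DN against mature SP, 2997 in cycling against mature SP and 1555 in DN against cycling. The log2 fold changes counted as turned in sign were Pkm 0.10 (WT, DN against cycling). With limma on means over cells of log values, in the WT kit these numbered 4 and 62.7% in cycling against mature SP (8 and 57.7%) and 2 and 48.1% in DN against cycling (4 and 45.04%), and in the Mini kit 8 and 67.7% in DN against resting DP (5 and 54.3%), 5 and 69.9% in DN against mature SP (3 and 39.4%) and 2 and 42.3% in DN against cycling (1 and 39.9%). Calls over all genes then numbered, in the WT kit 4197 in mature against resting DP and 9286 in DN against mature SP, and in the Mini kit 8272 in DN against resting DP and 8544 in DN against mature SP. The log2 fold changes counted as turned in sign were Slc2a1 0.070 and Hk1 0.24 (WT, DN against resting DP), Slc2a1 0.045 and Hk1 0.061 (WT, cycling against resting DP), Slc2a1 0.013, Slc2a3 0.00094, Hk1 0.18 and Pgk1 0.046 (WT, DN against mature SP), Slc2a3 0.026 and Aldoa 0.0062 (WT, cycling against mature SP), Hk1 0.25, Eno1 0.020 and Pkm 0.15 (Mini, DN against resting DP), Hk1 0.010 and Eno1 0.017 (Mini, cycling against resting DP), Pfkl 0.068, Pkm 0.013 and Ldha 0.12 (Mini, DN against mature SP), Hk1 0.050 and Pkm 0.077 (Mini, cycling against mature SP). With the clusters of high UMIs or high Rag1 counted in, in the Mini kit these numbered 2 and 33.2% in DN against cycling (1 and 39.9%). The log2 fold changes counted as turned in sign were Slc2a3 0.051 (WT, cycling against mature SP). With DN cells that had no coreceptor UMI, in the WT kit these numbered 3 and 41.9% in DN against resting DP (7 and 56.1%), 3 and 31.9% in DN against mature SP (5 and 41.3%) and 1 and 34.95% in DN against cycling (4 and 45.04%), and in the Mini kit 3 and 36.3% in DN against resting DP (5 and 54.3%).

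Means of log values gave a lopsided split over all genes, 9572 higher and 300 lower of 12484 in WT DN against resting DP, where the summed UMIs gave 3730 and 3035 of 12054. Scaling by DESeq2 size factors moved the median of all genes by less than 0.1 (log2). Thinning left 96 of 120 results that could be fitted, and fewer UMIs and cells enter both it and the gates. Depth is low for Hk2, Aldoa and Pgk1, with 9 to 16, 7 to 20 and 9 to 15 UMIs per Mini lobe in DN. The causes of the other changes were not tested.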
